A study of Bos taurus with 32 samples.

Results

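Chemokines, interleukins and the receptors for both were followed in the endometrium of repeat breeder (RB) and non-RB cows. Members were taken by name, as probes called CCL, CXCL, CCR, CXCR or IL followed by a digit. IL1A, IL1B, IL1RN, IL1R1, IL1R2 and IL18 were left out, and the study's probes for CCL8, CCL4 and CCL14 were added by identifier. The rule gave 40 of the 15077 gene names on the array, each with 1 probe of 60 bases whose sequence no other probe carried. They comprised 8 CC chemokine ligands, 4 CXC chemokine ligands, 8 chemokine receptors, 13 interleukins and 7 interleukin receptors. By accession, 32 of them were found in the RefSeq table, under which CCL3L1 is CCL3, CXCL6 is CXCL5, CXCL1 is GRO1, IL8 is CXCL8, IL8RB is CXCR1 and IL17 is IL17A. The probes for CCL4 and CCL14 carry the names LOC414347 and LOC616723, and were found by identifier alone. CXCL13, CXCR5, CCL11 and CCL19 lie on the array under other names and were outside the rule.

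Endometrium came from non-lactating Japanese Black cows killed on Day 15 after estrus. RB cows had repeatedly failed to conceive although palpation found a healthy uterus, and non-RB cows had conceived and were then returned to cycling by abortion with cloprostenol, a prostaglandin F2α analogue. From each cow caruncular (CAR) and intercaruncular (ICAR) endometrium of the horn ipsilateral to the corpus luteum and of the contralateral horn was hybridised to a bovine oligonucleotide array of 1 colour. This gave 8 groups of 4 arrays, 32 in all, with 4 cows per condition by the study's methods. A replicate number was taken as the same cow in the 4 tissues, which the labels do not state. All cows were non-pregnant, and the RB and non-RB cows also differed in that the non-RB cows alone had carried and lost a pregnancy under treatment. CAR is the aglandular endometrium at which the ruminant placenta attaches, and ICAR carries the glands. Whole tissue was used, so fewer cells of a type and less RNA per cell cannot be told apart.

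The 75th percentile of the processed signal ran from 1165 to 4857 over the 32 arrays, and 74.3 to 85.8% of probes were well above background. Both arrays of slide 1 stood apart. These were non-RB replicate 2 of CAR contralateral and non-RB replicate 1 of ICAR contralateral, whose replicate GAPDH spots had an SD of 1.32 and 0.873 on the log2 scale against a median of 0.153, and which carried 351 and 100 spots marked as outliers. Slide 2 held the RB arrays of replicates 2 and 3 and no others. All 8 of 8 epithelial and 6 of 6 stromal marker genes with a probe were well above background on all 32 arrays, as were 69.3% of all probes, which does not tell the compartments apart. Markers of glandular epithelium went against the compartment labels, since 3 of 3 with a probe were higher in CAR than in ICAR, with a median difference of 0.21 and with OVGP1 at 0.35 (SE 0.16, adjusted p of 0.269 by limma). In the same contrast 8 of 8 epithelial markers were lower in CAR (median -0.30) and 6 of 6 stromal markers higher (median 0.35). In each of these 3 lists 0 markers passed after adjustment by limma. The number of arrays, 4 in each group, limits the precision of every comparison.

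Chemokines are small secreted proteins that direct leukocytes through receptors coupled to G proteins. CC chemokines act mainly on monocytes, dendritic cells and lymphocytes, whereas the CXC ligands measured here act chiefly on neutrophils. Interleukins signal between leukocytes and to epithelium and stroma, mostly through paired receptor chains and the JAK and STAT proteins, and in the uterus both families are known from the handling of infection and from the maternal accommodation of the conceptus.

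Each level rests on a single oligonucleotide, so the probes of 2 sets of ligands and receptors are printed here because the detection and the RB comparisons described next turn on them. The first set holds the ligands CCL14 and CCL3L1 and the chemokine receptor CCR8. The second holds IL4 and IL13, the cytokines of type 2 immunity, and IL4R, the receptor chain that both share. All 6 are given 5′ to 3′ as the array's design lists them, with no base marked. Their place in the genome was not analysed here.
CCL14: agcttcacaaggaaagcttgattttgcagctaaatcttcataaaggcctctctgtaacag
CCL3L1: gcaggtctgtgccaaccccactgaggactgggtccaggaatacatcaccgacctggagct
CCR8: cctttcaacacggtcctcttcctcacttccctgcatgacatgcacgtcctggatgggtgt
IL4: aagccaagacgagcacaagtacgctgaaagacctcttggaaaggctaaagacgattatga
IL13: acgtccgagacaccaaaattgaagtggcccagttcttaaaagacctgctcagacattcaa
IL4R: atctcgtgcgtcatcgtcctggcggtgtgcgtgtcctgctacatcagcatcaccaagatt
Their GC content ran from 40% in CCL14 to 60% in CCL3L1, with 55.0% in CCR8 and IL4R and 45.0% in IL4 and IL13. The IL4 and IL13 probes were well above background on 0 of 32 arrays, whereas the CCL14, CCR8 and IL4R probes were on 32 and the CCL3L1 probe on 31.

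Fewer of these genes than of the array at large were measurable. Of the 40 members, 16 (40.0%) were well above background on all 32 arrays, against 69.3% of all probes, and 9 (22.5%) were on none, against 6.73% of all probes. The 9 were IL2, IL3, IL4, IL5, IL7, IL13 and IL21, which are growth and effector cytokines mostly of T cells, together with CCR1 and CCL20. Their probes had a median GC content of 40.0%, against 43.3% for the 16 members seen on all arrays and 41.7% for all members. A further 6 members were above background on 1 to 7 arrays, namely CCR7, CXCR3, IL8RB, IL12B, IL17 and IL18RAP, and 9 on 8 to 31 arrays.

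Detection varied with the role of the gene. Among CC ligands 5 of 8 were above background on all arrays and 1 on none, and among CXC ligands 2 of 4 and 0. Chemokine receptors gave 3 of 8 on all arrays and 1 on none, and interleukin receptors 4 of 7 and 0. Interleukins were the exception, with 2 of 13 on all arrays, IL10 and IL12A, and 7 on none. Of the paired systems, IL4R was thus measured throughout while its ligands IL4 and IL13 were not, IL2RA and IL2RG were measured while IL2, IL7 and IL21 were not, and IL12A was measured while IL12B, the other subunit of interleukin 12, was above background on 1 array. A probe below background gives only an upper limit for its transcript.

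**Figure D1:**
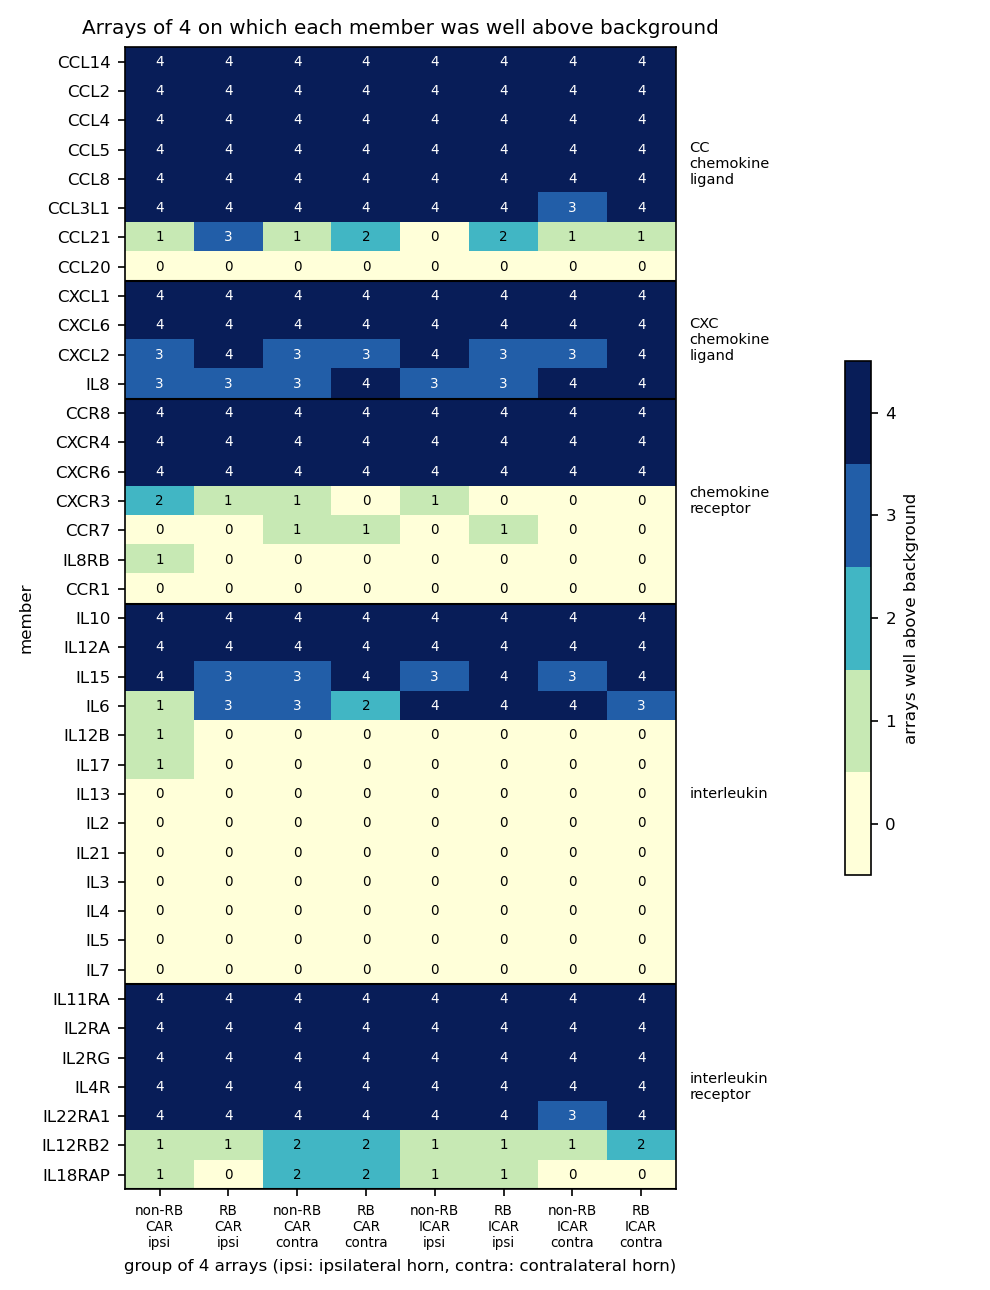
Number of arrays, of 4 in each of the 8 groups (columns), on which each member shown (rows, ordered by role) was well above background. Of the 13 interleukins 7 were at 0 in every group, whereas 5 of 8 CC ligands and 4 of 7 interleukin receptors were at 4 in every group.

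Levels are given hereafter as log2 of the signal relative to the 75th percentile of its own array, so that a negative level lies under that percentile. RB and non-RB cows were first compared within each compartment and horn by limma, with Benjamini-Hochberg adjustment over all probes tested. In CAR ipsilateral 26 members were tested and 0 passed an adjusted p of 0.05, as did 0% of all probes, while 2 members had an unadjusted p under 0.05 against a background of 3.41%. In CAR contralateral 0 of 27 members passed after adjustment (0% of all probes) and 1 had an unadjusted p under 0.05 (background 1.74%). In ICAR ipsilateral the counts were 0 of 26 (0%) and 1 (background 3.69%), and in ICAR contralateral 0 of 25 (0%) and 0 (background 1.60%). The methods' t-test, the test used in the study, called 0 members in each of the 4 after adjustment and gave 1, 1, 1 and 0 members with an unadjusted p under 0.05. The RB and non-RB arrays of a member tested failed to overlap for 0 members in each of the 4 comparisons, whereas 1.97%, 1.37%, 2.23% and 1.48% of all probes did not overlap in CAR ipsilateral, CAR contralateral, ICAR ipsilateral and ICAR contralateral. The values that follow are therefore measured differences of which none passed the adjusted test. The 4 comparisons draw on the same 8 cows and are not independent of each other.

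**Figure D2:**
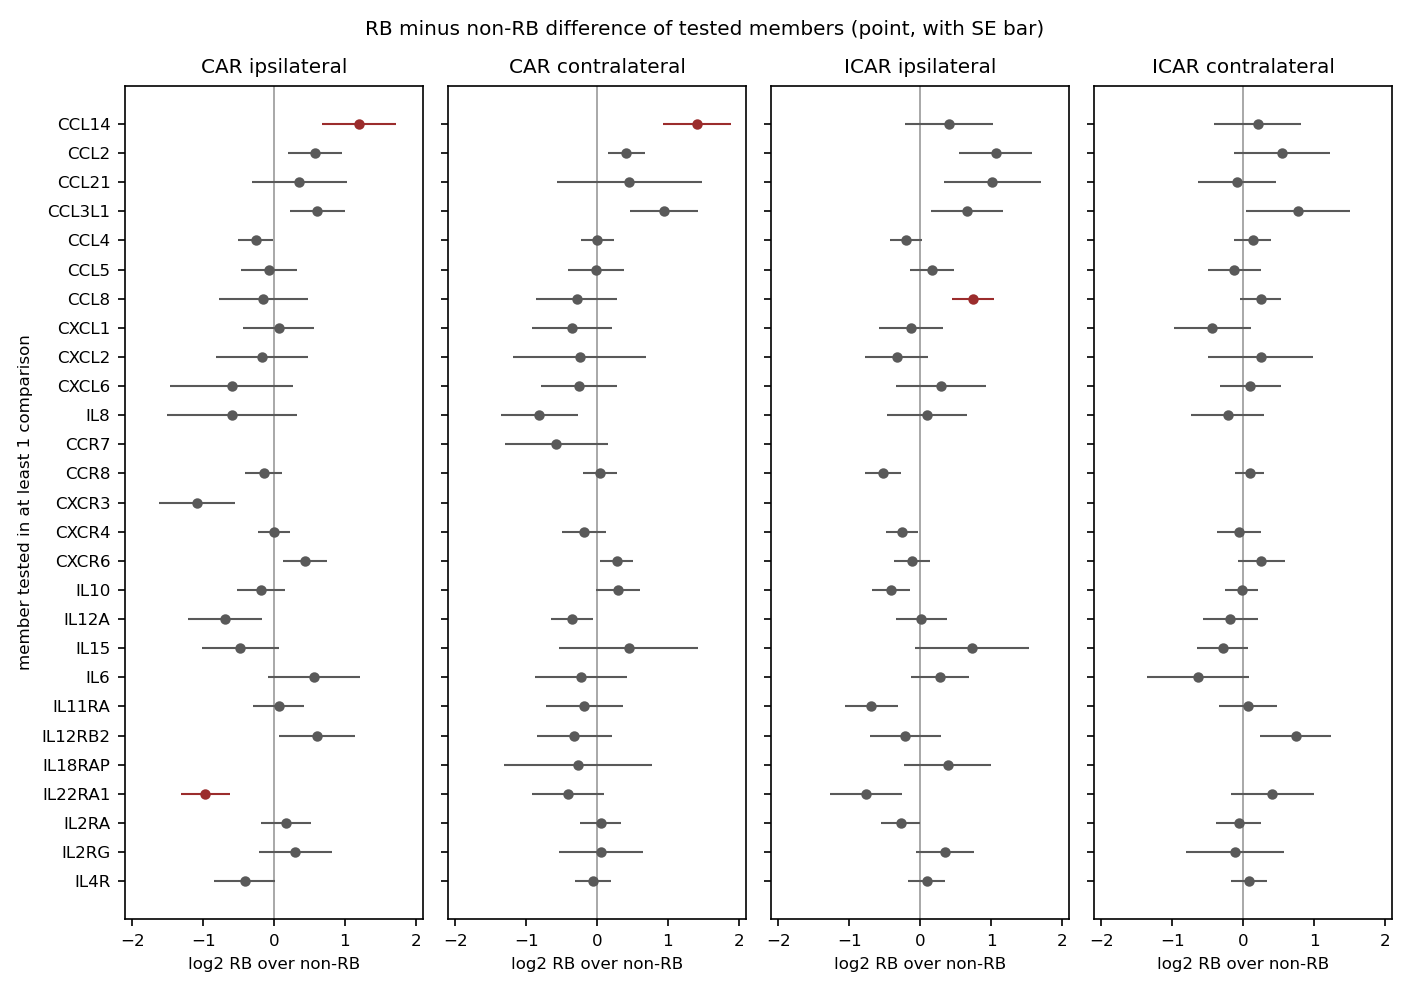
Difference of RB from non-RB cows (log2, horizontal axis) for the members shown in each compartment and horn where they were tested, with bars of 1 standard error from limma; red marks an unadjusted p under 0.05. The marked members are CCL14 and IL22RA1 in CAR ipsilateral, CCL14 in CAR contralateral and CCL8 in ICAR ipsilateral, and no member passed after adjustment.

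CCL14, a CC chemokine of monocytes that circulates in plasma, had the largest positive difference of any member in both horns of CAR. In CAR ipsilateral the 4 RB arrays were at -1.47, 0.19, -0.71 and 0.44 and the 4 non-RB arrays at -2.20, -2.20, -1.63 and -0.31. In CAR contralateral the RB arrays were at -1.52, -0.05, -0.15 and 0.20 and the non-RB arrays at -1.88, -2.79, -1.56 and -0.94. RB replicate 1 lay among the non-RB arrays in both horns, the other RB replicates lay above all non-RB arrays in CAR contralateral, and the groups overlapped. The difference was 1.20 (SE 0.52) in CAR ipsilateral, or 2.29-fold, with an unadjusted p of 0.0453 and an adjusted p of 0.9997 by limma and an exact permutation p of 0.114. In CAR contralateral it was 1.42 (SE 0.48), or 2.67-fold, with an unadjusted p of 0.0163 and an adjusted p of 0.9998 by limma and an exact permutation p of 0.0571, where 0.0286 is the smallest that 4 against 4 allows.

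In ICAR the CCL14 groups overlapped more widely. The RB arrays of ICAR ipsilateral were at -1.74, 0.05, -2.31 and 0.30 against non-RB arrays at -2.07, -1.54, -1.39 and -0.32, a difference of 0.40 (SE 0.62). In ICAR contralateral RB arrays at -2.68, 0.04, -0.87 and 0.51 stood against non-RB arrays at -1.19, -1.18, -0.92 and -0.52, a difference of 0.20 (SE 0.62). RB replicates 2 and 4 held the highest pair of levels in all 4 tissues. CCL14 is among the genes the study listed for CAR contralateral on these same arrays, so its rank there is not independent evidence.

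The size of the CCL14 difference varied with the cows and slides included. In CAR ipsilateral it was 0.92 without RB replicate 4 (unadjusted p of 0.129 by limma), and 1.05 with the slide as a random block (unadjusted p of 0.105 by limma), since no slide held both groups there. In CAR contralateral it was 1.76 within slide 6 and 0.36 within slide 8, each with 1 array a group. Of the B and plasma cell markers with a probe 1 of 2 was higher in RB cows in CAR ipsilateral, with a median difference of 0.82, and 2 of 2 in CAR contralateral, with 1.09. The mean level of the pair ran from -0.90 to 0.04 in RB and from -2.64 to -0.14 in non-RB arrays of CAR ipsilateral. Macrophage and monocyte markers were higher in RB cows for 2 of 7 genes in CAR ipsilateral (median -0.06) and 3 of 8 in CAR contralateral (median -0.17). General leukocyte markers were higher for 1 of 3 genes (median -0.09) and 0 of 3 (median -0.39) in the same order. The part of any of these cells in the CCL14 difference was not tested.

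CCL8, a monocyte attractant also called MCP-2, had the smallest p of any member in ICAR ipsilateral. The RB arrays there were at -4.31, -3.44, -3.07 and -3.64 and the non-RB arrays at -4.38, -4.51, -3.91 and -4.63. RB replicates 2, 3 and 4 lay above all non-RB arrays and RB replicate 1 lay below non-RB replicate 3. The difference was 0.75 (SE 0.30), or 1.68-fold, with an unadjusted p of 0.0327 and an adjusted p of 0.863 by limma and an exact permutation p of 0.0571. With the slide as a block it was 0.24 (SE 0.31, unadjusted p of 0.475 by limma). That fit drew on slides 6 and 8 alone, where it was 0.27 and 0.20 with 1 array a group each. With the scan session as a block it was 0.69 (SE 0.28, unadjusted p of 0.0408 and adjusted p of 0.959 by limma). Within sessions 2, 3 and 4 it was 1.13, 0.63 and 0.20. Among macrophage and monocyte markers 2 of 7 were higher in RB cows in ICAR ipsilateral, with a median difference of -0.15 and list means of -3.91 to -3.64 in RB and -4.07 to -3.15 in non-RB arrays. FCGR1A was the marker with an unadjusted p under 0.05 (0.55, adjusted p of 0.863 by limma). The part of these cells in the CCL8 difference was not tested.

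In CAR ipsilateral CCL8 varied more among the non-RB cows. Its non-RB levels spanned -5.33 to -2.06 there and its RB levels -4.17 to -3.47. The RB difference was -0.15 (SE 0.62) in CAR ipsilateral, -0.29 (SE 0.57) in CAR contralateral and 0.25 (SE 0.29) in ICAR contralateral. CCL8 is among the genes the study listed for ICAR ipsilateral on these same arrays, where it is marked up in RB cows while the study's discussion names it as lower in them, so the difference there is not independent evidence.

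CCL4 (MIP-1β), a chemokine made by activated T cells, NK cells and macrophages, differed by little between the groups. In CAR ipsilateral the RB arrays were at -4.35, -4.46, -4.40 and -3.86 and the non-RB arrays at -4.07, -3.94, -3.80 and -4.24, with RB replicate 4 inside the non-RB range and the other RB arrays below it. The difference was -0.26 (SE 0.25), with an unadjusted p of 0.322 by limma and an exact permutation p of 0.171. In ICAR contralateral RB arrays at -4.36, -4.18, -4.37 and -4.30 stood against non-RB arrays at -3.81, -4.50, -4.57 and -4.87. Non-RB replicate 1, of slide 1, was above all RB arrays and the other non-RB arrays were below them. The difference was 0.14 (SE 0.26, unadjusted p of 0.610 by limma) and 0.35 without that array (unadjusted p of 0.0900 by limma). The remaining CCL4 differences were 0.01 (SE 0.24) in CAR contralateral and -0.20 (SE 0.22) in ICAR ipsilateral. The study lists CCL4 in opposite directions for CAR ipsilateral and ICAR contralateral from these arrays.

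CCL3L1, which like CCL4 is a macrophage inflammatory protein, was next to CCL14 in CAR contralateral. RB arrays at -4.91, -3.30, -3.60 and -3.52 stood against non-RB arrays at -5.30, -5.52, -4.52 and -3.77, so that RB replicate 1 lay among the non-RB arrays and the other RB arrays above all of them. The difference was 0.94 (SE 0.48), with an unadjusted p of 0.0780 and an adjusted p of 0.9998 by limma and an exact permutation p of 0.143. In ICAR contralateral the difference of 0.77 (SE 0.74) was 0.13 without non-RB replicate 1, the array of slide 1, whose level of -6.73 was not well above background.

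**Figure D3:**
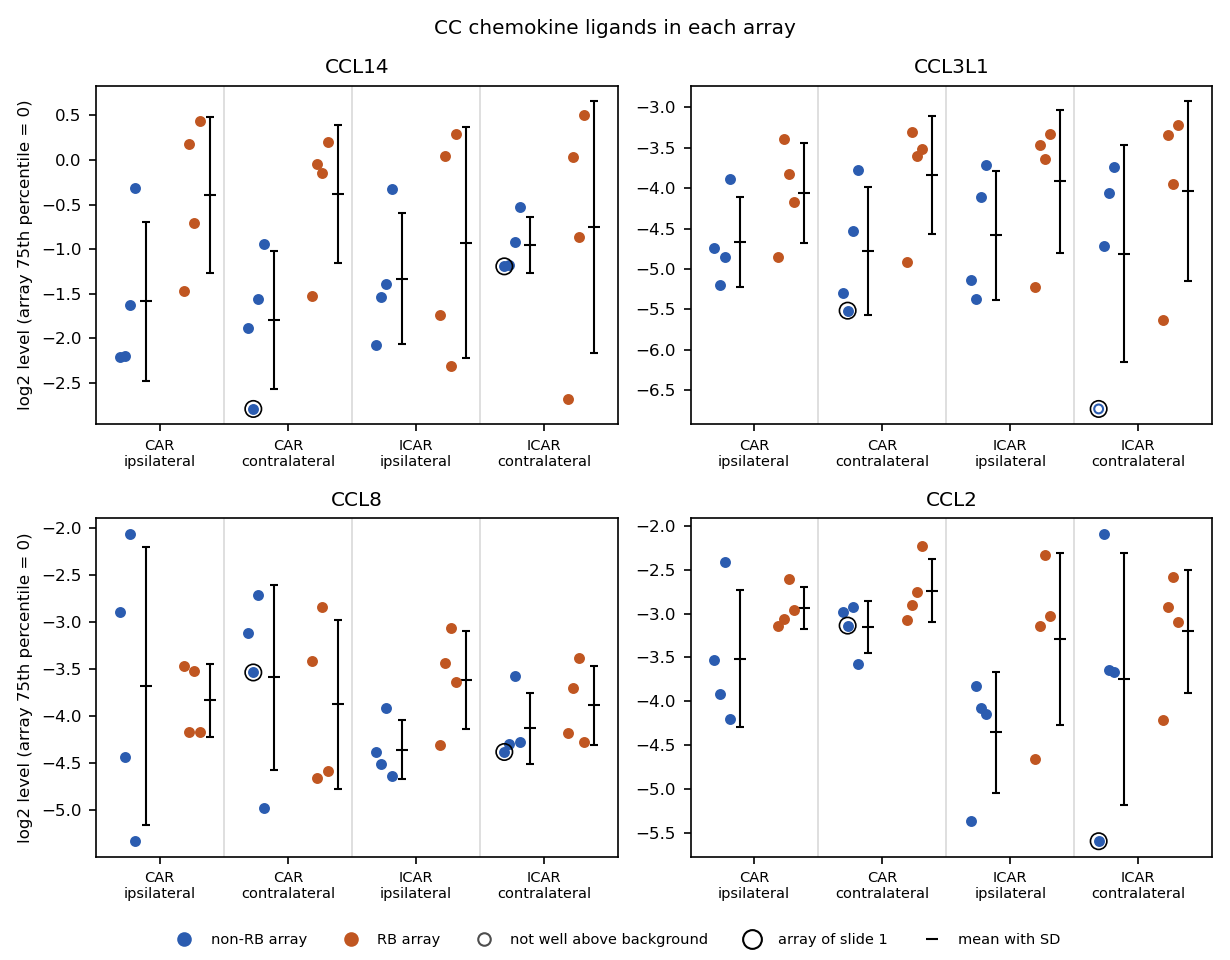
Log2 level of CCL14, CCL3L1, CCL8 and CCL2 in each array by compartment and horn, for RB and non-RB cows, with the mean and SD of each group beside the points; open points were not well above background and ringed points are the arrays of slide 1. RB and non-RB points overlap in every panel, with CCL14 of CAR contralateral (RB from -1.52 to 0.20, non-RB from -2.79 to -0.94) among the widest differences.

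CCL2, the monocyte chemoattractant MCP-1, was at higher mean levels in RB cows in all 4 tissues without passing a test, but was at -0.14 in ICAR contralateral with normexp correction and at -0.79 there with the slide as a block. In ICAR ipsilateral RB arrays were at -4.66, -3.14, -2.33 and -3.03 and non-RB arrays at -5.37, -3.83, -4.08 and -4.14, with RB replicate 1 alone below some non-RB arrays. The difference was 1.06 (SE 0.51), with an unadjusted p of 0.0657 and an adjusted p of 0.863 by limma and an exact permutation p of 0.114. With the slide as a block it was 0.11 (SE 0.55). CCL5 (RANTES), the T cell and NK cell chemokine, had a whole-uterus difference of -0.01 (SE 0.28), and its levels ran from -0.64 to 1.25 over the 32 arrays. CCL21, the lymphatic chemokine that CCR7 reads, was above background on 11 arrays.

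The CC ligands were counted as a group, none of whose members passed the adjusted test. In CAR ipsilateral 4 of 7 tested CC ligands were higher in RB cows with a median of 0.36, in CAR contralateral 5 of 7 with 0.41, in ICAR ipsilateral 6 of 7 with 0.67 and in ICAR contralateral 5 of 7 with 0.20. With normexp correction the counts were 3, 5, 6 and 1 of 7 in the same order, with medians of -0.07, 0.38, 0.39 and -0.14, and in ICAR contralateral the median of all probes was then -0.20. With the slide as a block 1 of 7 was higher in ICAR contralateral, with a median of -0.19, from slides 6 and 8 alone and without RB replicates 2 and 3. Without these corrections all members tested had medians of -0.11, -0.18, 0.10 and 0.07 in that order, and all probes 0.02, 0.00, -0.03 and 0.02. Markers of T and NK cells, which make several of these ligands, were higher in RB cows for 7, 4, 7 and 8 of 15 genes in that order, with medians of 0.00, -0.15, -0.09 and 0.04.

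Of the CXC ligands 4 of 4 were lower in RB cows in CAR contralateral, with a median of -0.30. With the slide as a block 1 of 4 was lower, with a median of 0.43. The difference in that fit drew on slides 6 and 8 alone, with 1 array a group each. It left out RB replicates 2 and 3. In ICAR ipsilateral 2 of 4 were lower, with a median of -0.01. For CXCL1, a neutrophil attractant, 1 cow stood apart in every tissue. RB replicate 3 was at -4.00, -4.35, -3.68 and -4.43 in its 4 tissues, whereas the other 28 arrays ran from -3.16 to -1.33, so that these 4 were the lowest of 32. IL8, the main neutrophil chemokine, and CXCL2 were above background on 27 arrays each, and CXCL6 on all.

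Chemokine receptors had narrow ranges or were dim. CXCR4, the receptor of CXCL12, ran from -2.06 to -0.65 over 32 arrays, and CXCR6, a receptor of memory T and NK cells, from -6.57 to -5.10. CCR8, a receptor of regulatory and type 2 helper T cells, was at -4.03, -4.04, -4.34 and -3.60 in the RB arrays of ICAR ipsilateral and at -3.61, -3.01, -3.50 and -3.79 in the non-RB arrays. RB replicate 4 lay among the non-RB arrays and the other RB arrays below all of them. The difference was -0.52 (SE 0.25), with an unadjusted p of 0.0636 and an adjusted p of 0.863 by limma and an exact permutation p of 0.0857.

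CXCR3, the T cell receptor for the interferon-induced CXC chemokines, was the member whose arrays did not overlap in 1 tissue, and it was too dim for the test there. In ICAR ipsilateral the RB arrays were at -8.997, -9.002, -8.69 and -8.66 and the non-RB arrays at -7.51, -8.43, -8.48 and -7.77. All RB arrays lay below all non-RB arrays (exact permutation p of 0.0286), but 0 RB arrays and 1 non-RB array were well above background, and the signal gave no fold that could be stated. In CAR ipsilateral CXCR3 was above background on 1 RB and 2 non-RB arrays.

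Interleukins offered 4 genes to the tests, IL6, IL10, IL12A and IL15. IL10, the cytokine that restrains macrophage and T cell activation, was at -4.08, -4.28, -4.64 and -3.09 in RB arrays of CAR ipsilateral and at -4.10, -3.89, -3.59 and -3.78 in non-RB arrays. RB replicate 4 was the highest of the 8 arrays and RB replicates 2 and 3 the lowest. The difference was -0.18 (SE 0.34), with an unadjusted p of 0.601 by limma and an exact permutation p of 0.629, and -0.50 without RB replicate 4. In CAR contralateral the IL10 difference was 0.30 (SE 0.31), in ICAR ipsilateral -0.41 (SE 0.26, unadjusted p of 0.155 by limma) and in ICAR contralateral -0.02 (SE 0.23). The study lists IL10 as lower in RB cows in CAR ipsilateral from these arrays.

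IL10RB, the receptor chain that interleukin 10 shares with interleukin 22, is not a member by name, since the array calls its probe a transcript similar to IL10RB. It was above background on all arrays, with RB differences of 0.18 (SE 0.34), 0.26 (SE 0.36), 0.38 (SE 0.28) and 0.45 (SE 0.29) in CAR ipsilateral, CAR contralateral, ICAR ipsilateral and ICAR contralateral. In ICAR contralateral, for which the study lists it, RB arrays at -0.11, 0.11, -0.44 and -0.49 overlapped non-RB arrays at -0.06, -0.63, -1.24 and -0.81.

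IL22RA1, the epithelial chain of the interleukin 22 receptor, had the smallest p of any member in CAR ipsilateral. RB arrays were at -6.68, -6.61, -6.80 and -5.71 and non-RB arrays at -6.11, -5.02, -5.15 and -5.65. RB replicate 4 lay within the non-RB range and the other RB arrays below it. The difference was -0.97 (SE 0.34), or 1.96-fold lower in RB cows, with an unadjusted p of 0.0183 and an adjusted p of 0.9997 by limma and an exact permutation p of 0.0571. It was -0.57 on normexp-corrected signals (unadjusted p of 0.0460 by limma) and -0.93 with the slide as a block (unadjusted p of 0.0548 by limma). Within scan session 2, with 3 RB and 2 non-RB arrays, it was -1.14, and within session 3, with 1 array a group, -0.05. Epithelial markers were lower in RB cows for 8 of 8 genes in the same tissue, with a median of -0.40. Their list mean was -0.31 to 0.35 in RB and 0.41 to 1.05 in non-RB arrays, with no overlap. CLDN3, a tight junction protein, was the epithelial marker with an unadjusted p under 0.05 (-1.43, adjusted p of 0.9997 by limma). In CAR contralateral the IL22RA1 means were -6.00 in RB and -5.59 in non-RB arrays, and in ICAR ipsilateral -6.10 and -5.34. In ICAR contralateral they were -6.04 and -6.45. Epithelial markers were higher in RB cows for 1, 4 and 1 of 8 genes in that order, with medians of -0.33, -0.04 and -0.32. The part of epithelial content in the IL22RA1 difference was not tested.

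IL12RB2, the inducible chain of the interleukin 12 receptor, had the smallest p in ICAR contralateral. RB arrays at -6.56, -7.62, -9.01 and -7.61 overlapped non-RB arrays at -8.66, -8.64, -7.67 and -8.80, of which 2 and 1 were well above background. The difference was 0.74 (SE 0.50), with an unadjusted p of 0.171 by limma and an exact permutation p of 0.314, and it was -0.59 with normexp correction. IL4R, IL2RA and IL2RG, all above background on every array, had whole-uterus differences of -0.07 (SE 0.25), -0.03 (SE 0.20) and 0.15 (SE 0.42).

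The whole uterus was then compared by averaging the 4 tissues of each cow. Of 25 members tested 0 passed after adjustment by limma, as did 0% of all probes, and 0 had an unadjusted p under 0.05 against a background of 2.23%. The methods' t-test on the same 8 means also gave 0 and 0. The 3 members with the smallest p were the CC ligands CCL2, CCL14 and CCL3L1. CCL2 means were -3.77, -3.00, -2.57 and -2.83 in the RB cows and -4.37, -3.24, -3.26 and -3.90 in the non-RB cows, where RB replicate 1 lay within the non-RB range. Its difference was 0.65 (SE 0.33, unadjusted p of 0.0775 and adjusted p of 0.99995 by limma, exact permutation p of 0.143). It was 0.81 (SE 0.50, exact permutation p of 0.229) for CCL14 and 0.75 (SE 0.47, exact permutation p of 0.171) for CCL3L1. Without non-RB replicate 1 the differences of CCL2 and CCL3L1 were 0.42 and 0.49, and without RB replicate 4 that of CCL14 was 0.48.

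CAR and ICAR were compared over all 32 arrays with condition and horn in the model. By limma 0 of 25 members passed after adjustment, against 1.35% of all probes, and 2 had an unadjusted p under 0.05, against a background of 16.2%. IL11RA, a receptor chain for interleukin 11, was at 2.82 ± 0.62 (SD, n = 15) in CAR and 2.23 ± 0.61 (SD, n = 16) in ICAR. Its lowest, median and highest level over all arrays were 1.05, 2.48 and 3.63, and the compartments overlapped. The difference was 0.60 (SE 0.22), with an unadjusted p of 0.00991 and an adjusted p of 0.138 by limma. With the cow as a block it was 0.63 (SE 0.16) with an adjusted p of 0.0199 by limma. The spot of non-RB replicate 2 of CAR contralateral, an array of slide 1, was marked as an outlier and left out. With such spots kept the difference was 0.37 (unadjusted p of 0.237 by limma), and without both arrays of slide 1 it was 0.51 (unadjusted p of 0.0173 by limma).

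CCL2 was the other member, at -3.09 ± 0.52 (SD, n = 16) in CAR and -3.65 ± 1.01 (SD, n = 16) in ICAR. The difference was 0.56 (SE 0.25), with an unadjusted p of 0.0315 and an adjusted p of 0.243 by limma, and 0.33 without non-RB replicate 1 (unadjusted p of 0.163 by limma). That cow held both of the lowest CCL2 levels, -5.37 and -5.60, in its ICAR arrays. Between the same compartments 6 of 6 stromal markers were higher in CAR, with a median of 0.35, and 8 of 8 epithelial markers lower, with a median of -0.30, while 3 of 3 glandular markers were higher, with a median of 0.21. The part of this in the IL11RA and CCL2 differences was not tested. CXCL6 differed by 0.53 (SE 0.35) and IL6 by -0.54 (SE 0.34), neither beyond an unadjusted p of 0.05.

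**Figure D4:**
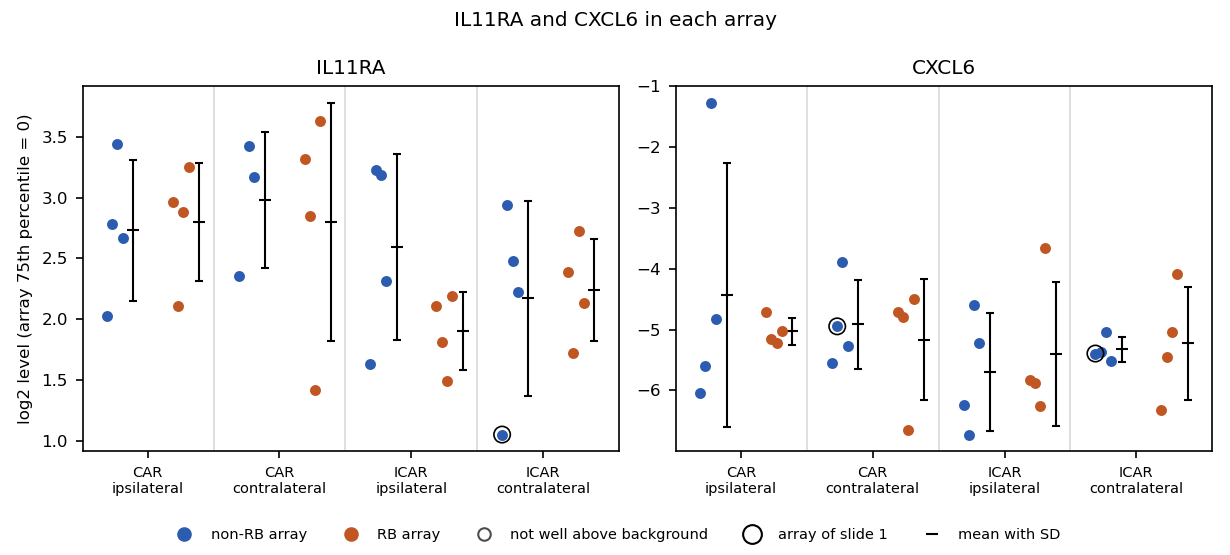
Log2 level of IL11RA and CXCL6 in each array by compartment and horn, with the mean and SD of each group; ringed points are arrays of slide 1, and 1 IL11RA spot of non-RB CAR contralateral was left out. IL11RA averaged 2.82 in CAR and 2.23 in ICAR with wide overlap, and CXCL6 reached -1.27 in 1 non-RB array of CAR ipsilateral.

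Between the horns 0 of 25 members passed after adjustment (0% of all probes) and 0 had an unadjusted p under 0.05 (background 1.36%) by limma. The smallest p belonged to IL10, at -3.98 ± 0.42 (SD, n = 16) ipsilateral and -4.25 ± 0.34 (SD, n = 16) contralateral, a difference of 0.27 (SE 0.14, unadjusted p of 0.0653 by limma). Without non-RB replicate 2 it was 0.16 (unadjusted p of 0.225 by limma). CCR8 followed at 0.19 (SE 0.11, unadjusted p of 0.0861 by limma). Both horns came from the same cows, and this fit had no block for the cow. Over the alternative settings the unadjusted p by limma ran from 0.0152 to 0.349 for IL10 and from 0.0322 to 0.495 for CCR8. The lowest adjusted p by limma was 0.540 and 0.623.

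Whether the RB difference itself differed between tissues was asked of the differences between tissues of the same cow. The share of all probes whose RB and non-RB cows did not overlap was not counted for CAR against ICAR or for the horns. A lack of overlap in these contrasts therefore has no background to be set against. For CAR against ICAR 0 of 25 members passed after adjustment (0% of all probes) and 1 had an unadjusted p under 0.05 (background 0.900%) by limma. That member was CCL14. Its CAR level minus its ICAR level was 0.72, 0.03, 1.16 and -0.08 in the RB cows and -0.41, -1.14, -0.44 and -0.21 in the non-RB cows. All 4 RB cows lay above all 4 non-RB cows, with a difference of 1.003 (SE 0.33), an unadjusted p of 0.0133 and an adjusted p of 0.9995 by limma, and an exact permutation p of 0.0286. It was 0.81 without the arrays of slide 1 (unadjusted p of 0.0226 by limma). IL12A, the p35 subunit of interleukin 12, ran the other way, at -0.52, -0.25, -0.22 and -0.39 in RB and 0.09, 0.04, 0.39 and -0.14 in non-RB cows. Its cows did not overlap either, with a difference of -0.44 (SE 0.21, unadjusted p of 0.0610 by limma, exact permutation p of 0.0286), and it was -0.15 with normexp correction (unadjusted p of 0.550 by limma).

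For ipsilateral against contralateral horns 0 of 25 members passed after adjustment (0% of all probes) and 3 had an unadjusted p under 0.05 (background 6.00%) by limma. IL6, a cytokine of inflammation and the acute phase, had the smallest p. Its ipsilateral minus contralateral level was -0.04, 0.17, 0.57 and 0.31 in the RB cows and -0.80, -0.80, -0.69 and -0.12 in the non-RB cows, with no overlap. The difference was 0.85 (SE 0.22), with an unadjusted p of 0.00289 and an adjusted p of 0.792 by limma and an exact permutation p of 0.0286. Without the arrays of slide 1 it was 0.29 (unadjusted p of 0.308 by limma), and with normexp correction 0.38 (unadjusted p of 0.253 by limma). IL6 was above background on 24 of the 32 arrays.

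CCR8 and IL22RA1 were the other members in that contrast. The CCR8 values were -0.03, -0.06, -0.06 and 0.11 in RB and 0.32, 0.57, 0.55 and 0.13 in non-RB cows, with no overlap. The difference was -0.41 (SE 0.17, unadjusted p of 0.0355 and adjusted p of 0.792 by limma, exact permutation p of 0.0286). Non-RB replicates 1 and 2, at 0.32 and 0.57, each include an array of slide 1. The CCR8 difference without those arrays is not given here. The IL22RA1 values were -1.24, 0.48, -0.31 and 0.05 in RB and 0.45, 0.83, 0.79 and 0.37 in non-RB cows, which overlapped, with a difference of -0.87 (SE 0.33, unadjusted p of 0.0271 by limma, exact permutation p of 0.0857). The IL22RA1 difference was -0.66 without the arrays of slide 1 (unadjusted p of 0.188 by limma), -0.54 without RB replicate 1 (unadjusted p of 0.0561 by limma) and -0.17 with normexp correction (unadjusted p of 0.684 by limma).

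**Figure D5:**
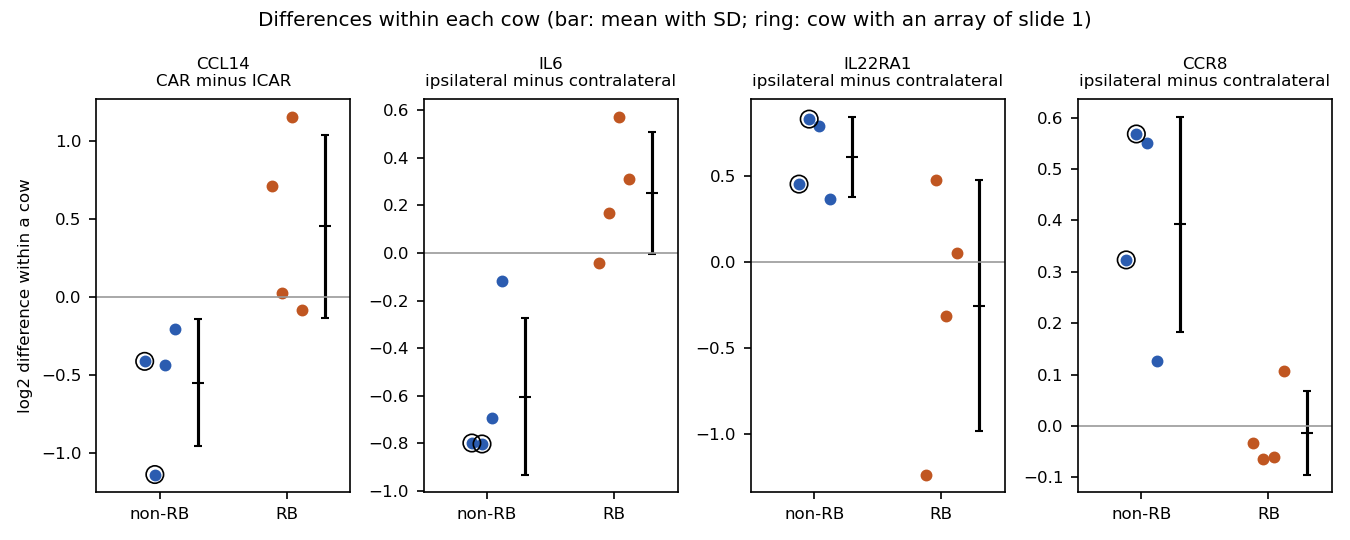
Difference within each cow (log2) for the 4 members with an unadjusted p under 0.05 in a contrast between tissues, for RB and non-RB cows (points) with their means and SDs; ringed points are cows with an array of slide 1. For CCL14 (CAR minus ICAR) and IL6 (ipsilateral minus contralateral) all RB cows lie above all non-RB cows. The share of all probes without overlap was not counted for these contrasts, and no member passed after adjustment.

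Much of the spread of these genes around their group means lay between cows. For this, each level was taken as its deviation from the mean of its group of 4 arrays. Cow and slide went together for several cows. RB replicates 2 and 3 were on slide 2 in every tissue, RB replicate 4 on slide 6 and non-RB replicate 4 on slide 7. Spread between animals and spread between slides therefore cannot be told apart. Of the 16 members above background on all arrays 11 had a larger SD between the 8 cow means of these deviations than within a cow over its 4 tissues. The share over all probes was not counted. CCL14 led, with an SD of 0.786 between and 0.400 within cows, a ratio of 1.97, followed by CXCL1 at 1.84 and IL12A at 1.61. CXCR6 and CXCR4 were lowest, at 0.335 and 0.594. CCL4 had the smallest range of these 16 over all arrays, 1.08 log2 units, and CXCL6 the largest, 5.45.

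Patterns across arrays were compared for the 300 pairs among 25 members above background on at least 8 arrays, as a description only, since arrays of a cow share its tissue and arrays of a slide their hybridisation. The pair most alike was CCL14 and CCL3L1, with a Pearson r of 0.743 over 32 arrays, 0.822 over the 30 arrays outside slide 1 and 0.916 over the 8 cow means. IL10 with IL2RA was at 0.699, CXCL1 with CXCL2 at 0.679 and CCR8 with IL22RA1 at 0.666. The most opposed pair was IL10 and IL2RG, at -0.616. The median over all pairs was 0.01.

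Other genes of the pathway were described from a list of further ligands, receptors and signalling proteins, of which 31 had a probe. In the RB comparisons 0 passed after adjustment by limma, as did 0% of all probes. At an unadjusted p under 0.05 by limma there was 1 of 27 in CAR ipsilateral (background 3.41%). There were 0 of 28 in CAR contralateral (background 1.74%) and 1 of 26 in ICAR contralateral (background 1.60%). The genes were CCRL1, an atypical receptor that scavenges CC chemokines (1.39, SE 0.39), and MIF, a macrophage cytokine read by CD74 (1.40, SE 0.38). ICAR ipsilateral and the whole uterus had 0 of 26 each (backgrounds 3.69% and 2.23%). Of the 20 signalling genes, such as JAK, STAT, SOCS and NF-κB proteins, 10 were higher and 10 lower in RB cows in CAR ipsilateral, with a median of -0.04. Between compartments 2 of 26 (7.69%) had an unadjusted p under 0.05 by limma, against a background of 16.2%. CCBP2, another scavenging receptor, and TRAF3IP2, an adaptor of interleukin 17 signalling, had differences of -0.44 (SE 0.18) and -0.46 (SE 0.15). Neither passed after adjustment by limma.

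Of the chemokine genes the array lists under other names, CCL11 (eotaxin-1), which attracts eosinophils, had an RB difference of -2.12 (SE 0.92) in CAR ipsilateral. Its unadjusted p was 0.0431 and its adjusted p 0.9997 by limma, with an exact permutation p of 0.171. The groups overlapped, at means of -8.87 (SD 1.27) in RB and -6.76 (SD 1.93) in non-RB arrays. CXCR3, at a mean of -8.84 in the same RB arrays, was well above background on 1 of them, so the CCL11 mean in RB lay near background. CXCR5, the B cell follicle receptor, differed between the horns by 0.50 (SE 0.22, unadjusted p of 0.0320 and adjusted p of 0.9999 by limma).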

How the data were processed

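Total RNA of each tissue was labelled with Cy3 and hybridised to a custom bovine oligonucleotide array, and the authors extracted a processed intensity per spot with Agilent Feature Extraction 9.5. The deposited value table is on the log2 scale too, and matched the values used here but for a constant of 0.0042 to 0.014 per array. The scanner files were used here. From the deposited intensity, log2 was taken and the 75th percentile of each array subtracted, control spots were left out and outlier spots set to missing. Each probe name had 1 spot, so no spots were averaged. A probe was tested if it was well above background on at least 2 of 8 or 8 of 32 arrays, with at least 3 values in a group.

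Groups, replicate numbers and Day came from the labels. Groups were compared with limma 3.58.1 in R 4.3.3, with Benjamini-Hochberg adjustment over all probes tested and a threshold of 0.05, and single genes also with an exact two-sided permutation test over the 70 splits of 8 values. Per the study's methods the 4 arrays of a group came from 4 cows. The study's unpaired Student's test is called the methods' t-test and was run for the RB comparisons. Slide and scan session were taken as batches. In the RB comparisons outside CAR ipsilateral only slides 6 and 8 held both groups, with 1 array a group each. The RB difference with a slide block there drew on those arrays alone. It did not draw on RB replicates 2 and 3, which were on slide 2. The steps were tested on simulated data. Alternatives covered the dim-probe filter, quantile normalization, normexp (offset 50), the deposited table, outlier spots kept, blocks for slide, session and replicate number, a joint fit, and each replicate left out.

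The members and the pathway and marker lists were chosen with earlier results of these data known. Named members were the genes the study lists, the members of smallest p in each comparison (the first 2, or 3 for the whole uterus), those whose groups did not overlap, and listed ligand or receptor partners. CCL2, CCL5, CXCL1, CXCL6 and the receptors given by range were named after their values were seen. For a marker gene with several probes the brightest was used. Figures were drawn with Python 3.11.15. The values of 1 member, included in the counts, are not reported here.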

Additional observations from a re-analysis of the deposited data

Results flagged for a closer look

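In part of the named members 95 groups of 4 arrays were checked for an array far from the other 3, and 6 groups held one, where chance alone marks about 1 group in 20. The members checked were CCL2, CCL3L1, CCL4, CCL8, CCL14, CCR8, IL6, IL10, IL11RA, IL12A, IL12RB2 and IL22RA1. All 6 lay in ICAR. CCL5, CXCL1 and CXCL6 were not checked. In CAR ipsilateral the RB arrays of CXCL1 ran from -4.00 to -1.78 about a mean of -2.40. CCL3L1 was at -5.22 in RB replicate 1 of ICAR ipsilateral, with the other arrays from -3.64 to -3.32. CCL4 was at -4.57 in non-RB replicate 4 of ICAR ipsilateral (others from -4.27 to -4.26) and at -4.07 in RB replicate 4 of the same tissue (others from -4.72 to -4.68). CCL8 was at -3.57 in non-RB replicate 3 of ICAR contralateral, with the others from -4.38 to -4.28. IL10 was at -3.38 in non-RB replicate 2 of ICAR ipsilateral (others from -3.99 to -3.94). IL12RB2 was at -7.67 in non-RB replicate 3 of ICAR contralateral (others from -8.80 to -8.64), where it alone of the 4 arrays was well above background.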

How the results depend on the processing

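Over 163 alternative fits of the 9 comparisons, 1 brought a member past the adjusted threshold. With the replicate number (the presumed cow) as a block, CAR against ICAR gave 1 member, IL11RA, at 0.63 (adjusted p of 0.0199 by limma), where its adjusted p under the other settings ran from 0.0514 to 0.637. Same-numbered arrays of a condition deviated together with a mean r of 0.413 in RB (22 of 24 pairs over 0.1) and 0.381 in non-RB cows (21 of 24), against a mean r of -0.138 and -0.123 for arrays of different numbers. Not every pair was over 0.1, and the labels state no pairing. RB and non-RB arrays of 1 number had a mean r of 0.134. The block changed no other call. Over all probes, CAR against ICAR gave 174 calls, 1086 with the replicate block, 531 with the session as a block, 79 with normexp and 0 without the arrays of slide 1, and from 0 to 908 with a replicate left out. The whole-uterus comparison gave 60 calls, 0 of them members, when the 32 arrays were taken as independent.

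Of 587 single-gene values 28 changed sign, in 10 of 32 results, and 0 of 158 did for members with an unadjusted p under 0.05 by limma. Those members were picked by their p on these same arrays, so a kept sign is not independent evidence. With normexp, in ICAR contralateral, IL12RB2 was at -0.59, CCL3L1 at -0.12, CCL8 at -0.22 and CCL4 at -0.23. With the slide as a block there, CCL3L1 was at -0.036, CCL8 at -0.29, CCL14 at -0.034 and IL10 at 0.078, and with the session as a block CCL3L1 at -0.0043, CCL8 at -0.15 and IL10 at 0.092. CCL8 in CAR ipsilateral was at 0.30 with the session as a block, and CCL4 in CAR contralateral at -0.080 with quantile normalization. Leaving out 1 replicate at a time gave -0.70 to 0.39 for CCL8 and -0.50 to 0.021 for IL10 in CAR ipsilateral, -0.10 to 0.14 for CCL4 in CAR contralateral, -0.0042 to 0.86 for CCL14 in ICAR ipsilateral, and -0.0070 to 0.35 for CCL4, -0.22 to 0.85 for CCL14 and -0.16 to 0.086 for IL10 in ICAR contralateral. The cause of these changes was not tested. Members near background have only a bound, and 4 arrays a group limit what could be detected.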
